A study of Saccharomyces cerevisiae with 18 samples.

Results

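Messenger RNA that has lost its 5′ cap was compared between galactose and glucose in diploid wild-type Saccharomyces cerevisiae (strain SLS045, S288c background) at mid-log phase. TIF-Seq (Transcript IsoForm Sequencing) joins both ends of a polyadenylated RNA molecule, so that each read gives where a molecule began and where it ended. Of the 18 libraries of the series, 2 were made from non-capped molecules, 1 from a glucose culture in YPAD and 1 from a galactose culture in YPGal, both rich media of yeast extract and peptone. The other 16 were 12 standard and 4 long-enriched libraries of capped molecules, which serve here as the reference. The sources used here do not give how capped molecules were kept out of the non-capped libraries. A pair was given to the coding sequence it overlapped most on its own strand, and 3649 of 6002 protein-coding genes had at least 50 non-capped reads in both media together.

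In yeast most mRNA is decayed by shortening of the poly(A) tail, removal of the cap by Dcp2 and digestion from the 5′ end by the exonuclease Xrn1. A non-capped molecule that still has a poly(A) tail is therefore either the product of decapping or of an endonucleolytic cut, or an intermediate that Xrn1 has partly digested. Where Xrn1 follows the last translating ribosome, the 5′ ends of the intermediates lie at a fixed distance upstream of the codon in the ribosomal A site. RNA broken during preparation also carries no cap, and it cannot be told apart from these intermediates by its ends alone.

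The glucose library held 1317650 reads and the galactose library 1100551. These reads fell on only 109777 distinct pairs of ends in glucose and 42257 in galactose, or 12 and 26.0 reads per pair. The standard capped columns held 10.5 and 8.69 reads per pair. Reads of 1 pair may be copies of 1 molecule, so distinct pairs are counted beside the reads, and a gene is called higher or lower only where both counts differ at least 2-fold after scaling and both 95% exact Poisson intervals of the ratio exclude 1. Intervals cover counting error only. In such bulk samples fewer cells with a transcript and less of it per cell cannot be told apart. There is 1 library per medium, from culture 2 in glucose and culture 3 in galactose, so medium, culture and library cannot be told apart, no spread between replicates exists and no p-value is given. Galactose has fewer distinct pairs, a median of 4 per gene against 11 in glucose, and 2016 of the 3649 genes had fewer than 5 pairs in one of the libraries.

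Some of the 5′ ends that came back most often are shown as examples. In the windows below, written 5′ to 3′ on the coding strand of build R64, the first 15 bases precede the 5′ end and the capitals are the first 15 bases of the RNA molecule. The windows in HCR1 and YPT1 are shown because their ends were among those with the most distinct pairs in both media, and the one in GAL10 because its end had the most in galactose.
HCR1 end, chrXII:539031-539060, minus strand: cgattgatttgattaGAGATGTAGCAAAAC
YPT1 end, chrVI:55674-55703, minus strand: ccttcaacggcgtgaAGATGTGGCTGCAAG
GAL10 end, chrII:276482-276511, minus strand: tactctaaacaatgaATTGACGCTTATTGT

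The end in HCR1, a subunit associated with translation initiation factor 3, began 313 reads in glucose and 293 in galactose, from 13 and 10 pairs. The end in YPT1, a Rab GTPase of the early secretory pathway, began 630 and 385 reads, from 15 and 9 pairs. In both genes the same base was thus used in both media. The end in GAL10, the UDP-glucose 4-epimerase and mutarotase of galactose use, lies 1856 nt inside and began 1415 reads in galactose from 16 pairs, with 0 in glucose. These ends were also read in the standard capped columns, where the YPT1 end had 328 reads in glucose and 560 in galactose, and the GAL10 end 5270 in galactose and 0 in glucose. Of all non-capped distinct pairs, 14.7% in glucose and 16.7% in galactose also occurred in a capped column of their medium. Whether such ends belong to decay intermediates was not tested.

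Ends shared by both media were a minority of the positions used. The small number of distinct pairs limits how many positions can be shared, and the number to expect at this depth was not worked out. Non-capped molecules began at 82247 positions in glucose and at 31929 in galactose, and 7322 positions were used in each. Positions with at least 5 distinct pairs numbered 737 in glucose and 229 in galactose, of which 42 had that many in both. Among genes with at least 200 reads in each library, the single positions whose share of a gene differed most between the media rested on few molecules: the 5 highest in galactose, in IES2, UTP6, UTP9, TOM1 and BDF2, came from 1 to 3 distinct pairs each. On the glucose side, the position in SFT1 had 124 reads from 7 pairs, and those in MRPS9, SCL1 and SEC18 had 2 or 3 pairs, each with 0 in galactose. The position in TRX1, a thioredoxin gene, had 353 reads from 15 pairs in glucose and 68 from 3 in galactose.

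The genes of galactose use gave the largest differences in non-capped molecules. GAL1, the galactokinase gene at chrII:279021-280607 on the plus strand, had 1 read in glucose and 24464 in galactose, from 1 and 819 distinct pairs. The ratio by distinct pairs was 2064-fold (interval 369 to 81620). GAL2, the galactose permease gene at chrXII:290212-291936 on the plus strand, had 0 reads in glucose and 14570 in galactose from 622 pairs, at least 522-fold higher with the 0 set to a floor of 3 pairs. GAL10 had 0 and 6102 reads, the latter from 190 pairs, and GAL7, the uridylyltransferase gene, 0 and 1371 from 82 pairs. These are at least 159.6-fold and 68.9-fold higher. The glucose library thus held 1 read of these 4 genes in all. They passed the minimum of reads through galactose alone, so that they differ follows in part from the filter.

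The regulators of the pathway differed less. GAL3, the galactose sensor, had 6 glucose reads from 1 pair and 537 galactose reads from 26 pairs. GAL4, the transcription activator, had 0 and 210 reads, but the latter came from 4 pairs. GAL80, the repressor of Gal4, had 161 and 328 reads from 16 and 15 pairs, 2.36-fold higher by pairs (interval 1.09 to 5.10) after scaling for the smaller number of galactose pairs. PGM2, the main phosphoglucomutase, had 62 and 924 reads from 4 and 36 pairs. Its paralogue PGM1 went the other way, with 234 reads from 22 pairs in glucose and 7 reads from 1 pair in galactose, 8.73-fold lower by pairs (interval 1.41 to 360). In the capped columns PGM1 had 370 and 341 reads, a log2 ratio of −0.58 after scaling, to which scaling by totals would add 0.44.

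Of the 9 galactose pathway genes, 8 were called higher and 1 lower, and the 4 other Gal4 targets were called higher. Besides GAL1, GAL2, GAL10 and GAL7, the genes GAL3, GAL4, GCY1 and PCL10 passed the minimum of reads through galactose alone. PGM1 passed it through glucose alone. That these genes differ follows in part from the filter, and the counts say little of the groups. Over the measured genes, 6.96% were called higher and 4.52% lower, 11.5% in all. By reads alone 56.4% were called, 27.2% higher and 29.2% lower. GCY1, a glycerol dehydrogenase gene, had 13 and 1721 reads from 3 and 66 pairs. MTH1, a corepressor of hexose transporter genes, had 61 and 914 reads from 10 and 37 pairs. PCL10, a cyclin, had 8 and 116 reads from 1 and 9 pairs, and FUR4, the uracil permease gene next to GAL1, 132 and 406 reads from 11 and 14 pairs.

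**Figure D1:**
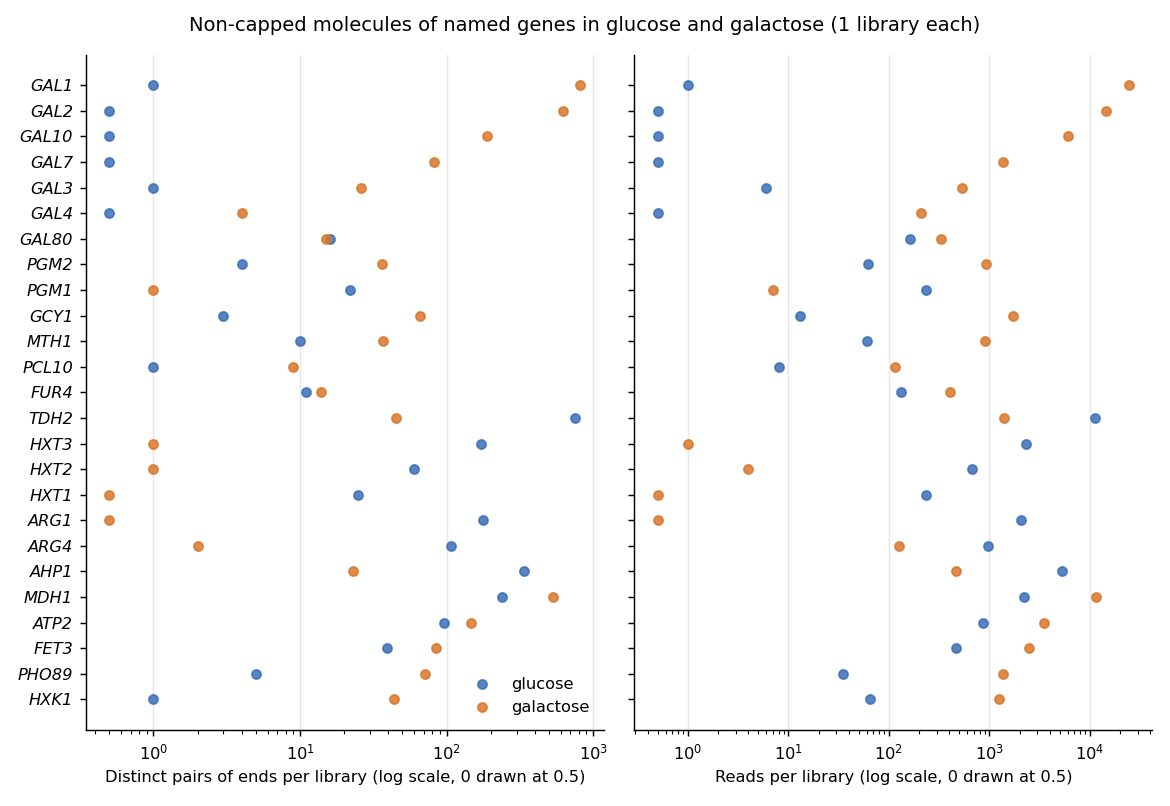
Distinct pairs of ends (left) and reads (right) of non-capped molecules per library for 25 genes, glucose in blue and galactose in orange, on log axes with 0 drawn at 0.5, without scaling for depth. GAL1, GAL2, GAL10 and GAL7 sit at 0 or 1 in glucose, while HXT3, HXT2, HXT1 and ARG1 sit at 0 to 4 reads in galactose, and GAL80 pairs lie together at 16 and 15.

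The non-capped galactose library gave much of its depth to the pathway. The 9 genes made up 4.54% of its assigned reads and 4.39% of its distinct pairs, against 0.0362% of reads in glucose. They made up 1.22% of reads in the standard capped galactose column and 8.50% in the long-enriched one. Molecule length differs between the protocols: coding sequences under 500 nt gave 15.7% of non-capped reads in either medium, 42.3% and 46.3% of standard capped reads and 13.8% and 13.3% of long-enriched reads in glucose and galactose. A share set against a capped column is therefore read here only beside these values. GAL1 alone gave 2.29% of the non-capped galactose reads, second to RPL3 (2.49%), a ribosomal protein gene, and ahead of GCN4 (1.53%), the activator of amino acid synthesis genes. In glucose the most read genes were TDH3 (3.35%), a glyceraldehyde-3-phosphate dehydrogenase gene, RPL3 (3.09%) and GPM1 (2.20%).

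Non-capped molecules of GAL1 began all along the gene. In galactose 99.7% of its reads began inside the coding sequence, at 439 different positions, and their median lay 1164 nt after the start codon of the 1587 nt coding sequence. With the coding sequence cut into 3 equal parts, 88, 292 and 433 distinct pairs began in these parts, from start to stop codon. GAL2 had 82, 208 and 325 pairs in its parts, at 342 positions. Both genes thus had the most ends in the part next to the stop codon. In GAL10, 26 of 190 pairs began within 10 nt of the 5′ end most used by its capped molecules, which lies inside the coding sequence at the position printed above.

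Genes for glucose uptake and for arginine and lysine synthesis were lower in galactose. HXT3, a low-affinity glucose transporter gene at chrIV:1162957-1164660 on the minus strand, had 2302 reads in glucose and 1 in galactose, from 171 and 1 pairs, 67.9-fold lower by pairs (interval 12 to 2696). HXT2 had 673 and 4 reads from 60 and 1 pairs. HXT1 had 235 and 0 reads from 25 and 0 pairs, at least 3.31-fold lower with the 0 set to 3 pairs, and HXT4 had 184 and 0 from 15 and 0 pairs. Of 12 hexose transporters and sensors, 5 were measured, and 4 of these were called lower and 0 higher. These 4, like ARG1, ARG3, FET4 and EDC3 below, passed the minimum through glucose alone. That they differ follows in part from the filter, and the count of hexose transporters says nothing of the group.

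In arginine and lysine synthesis, 9 of 14 measured genes of 16 were called lower and 0 higher, with a median log2 ratio of −2.11 in reads and −2.08 in pairs. ARG1, argininosuccinate synthetase, had 2084 reads from 177 pairs in glucose and 0 in galactose, at least 23.4-fold lower. ARG3, ornithine carbamoyltransferase, had 334 and 0 reads from 27 and 0 pairs, and ARG4, argininosuccinate lyase, 973 and 125 reads from 107 and 2 pairs. CPA1, the small subunit of carbamoyl phosphate synthetase, had 1050 and 402 reads from 90 and 8 pairs. LYS20, a homocitrate synthase gene with a near-identical copy, had 2624 and 531 reads from 187 and 17 pairs. Capped reads of ARG1 were 3568 in glucose and 47 in galactose.

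Of 21 measured genes of glycolysis and fermentation, 2 were called higher (HXK1 and GLK1, which phosphorylate hexoses) and 4 lower (TDH2, GPM1, FBA1 and ADH5). The median log2 ratio was −0.30 in non-capped reads and −0.42 in distinct pairs, and −1.33 in capped reads. Scaling the capped columns by their totals in place of the trimmed mean of M-values adds 0.44 to each capped log2 ratio, and 0.04 to each non-capped one. TDH2, a glyceraldehyde-3-phosphate dehydrogenase gene at chrX:453683-454681 on the minus strand whose reads can be shared with its near-identical copy TDH3, had 11279 reads in glucose and 1385 in galactose from 752 and 45 pairs, 6.63-fold lower (interval 4.91 to 9.17). TDH3 had 43005 and 15489 reads from 1800 and 443 pairs, 1.61-fold lower by pairs (interval 1.45 to 1.79), and was not called; merging pairs with near-identical ends turned its log2 ratio to 0.12. HXK1, hexokinase isoenzyme 1, had 65 and 1252 reads from 1 and 44 pairs.

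Most measured respiratory genes were called higher in galactose. Of 33 measured respiratory chain and ATP synthase genes of 36, 26 were called higher and 1 lower, COX5B, the hypoxic isoform of a cytochrome c oxidase subunit. Their median log2 ratio was 2.24 in reads and 2.39 in pairs, and 1.95 in capped reads. ATP2, the beta subunit of the ATP synthase, had 860 and 3487 reads from 96 and 146 pairs, 3.83-fold higher by pairs (interval 2.94 to 5.01). ATP5 had 1172 and 2807 reads from 101 and 122 pairs. Of 15 measured tricarboxylic acid cycle genes of 16, 11 were called higher and 0 lower. All 36 respiratory genes together had 4927 glucose and 16520 galactose reads, and all 16 cycle genes 5595 and 20735. Members with few glucose reads may thus have passed the minimum of reads through galactose alone. That such members differ would follow in part from the filter, although most members of either list were measured. MDH1, mitochondrial malate dehydrogenase, had 2229 and 11596 reads from 237 and 529 pairs, 5.62-fold higher (interval 4.82 to 6.58), and CIT1, citrate synthase, 296 and 1634 reads from 35 and 57 pairs. Counting only reads that cover the coding sequence turned the CIT1 log2 ratio to −3.51.

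Smaller groups held single genes with large differences. PHO89, a sodium and phosphate cotransporter gene, had 35 and 1351 reads from 5 and 71 pairs, 35.8-fold higher by pairs (interval 14.6 to 114), and was the 1 called gene of 11 measured in the phosphate group. It passed the minimum of reads through galactose alone. In the iron group 4 of 12 measured genes were called higher, among them FET3, the high-affinity iron uptake oxidase, with 467 and 2494 reads from 39 and 84 pairs, and 1 was called lower. That gene, FET4, the low-affinity iron transporter, had 554 and 0 reads from 63 and 0 pairs. AHP1, a thioredoxin peroxidase gene, had 5299 and 460 reads from 338 and 23 pairs, 5.83-fold lower (interval 3.82 to 9.33).

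Most genes of translation and of mRNA decay itself were not called, and neither were 3230 of the 3649 measured genes. Over the measured genes 6.96% were called higher and 4.52% lower. Of 136 measured cytosolic ribosomal protein genes, 3 were called higher and 10 lower, with a median log2 ratio of −0.26 in reads and −0.21 in pairs, against −0.59 in capped reads. Scaling by totals would add 0.44 to the capped median and 0.04 to the non-capped ones, so their order depends on the scaling. RPL8B had 3540 and 960 reads from 284 and 52 pairs and was called lower; its reads can be shared with a near-identical copy. Of 45 measured ribosome biogenesis genes, 1 was called higher and 3 lower, among them GAR1 with 2719 and 841 reads from 217 and 40 pairs. Mitochondrial ribosomal proteins had 3 called higher and 1 lower of 53. For decapping and 5′ to 3′ decay, 0 of 11 measured genes were called higher and 1 lower: EDC3, an enhancer of decapping, with 277 and 11 reads from 29 and 2 pairs. In surveillance decay, SKI2 and SKI3, of the Ski complex that feeds the exosome, were called higher of 7 measured. SKI2 had 195 and 518 reads from 26 and 23 pairs, and SKI3 332 and 605 reads from 37 and 30 pairs. In deadenylation, 0 of 11 measured genes were called in both counts; by reads alone 1 was higher and 5 lower, against the shares of measured genes given above.

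The remaining groups were small, and their counts stand beside 6.96% called higher and 4.52% called lower over the measured genes. Heat shock and stress genes had 4 called higher and 2 lower of 20 measured, trehalose and glycogen genes 2 higher and 0 lower of 11, gluconeogenesis and acetate genes 2 higher and 0 lower of 7, and core histones 1 higher and 0 lower of 9. Cell wall mannoproteins had 0 called higher and 1 lower of 12, CWP1, with 710 and 55 reads from 48 and 6 pairs. Of 11 translation elongation and release factor genes, SUP35 was called higher, with 66 and 299 reads from 7 and 18 pairs, and SUP45 lower, with 568 and 103 reads from 51 and 7 pairs; their products form the translation termination complex.

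**Figure D2:**
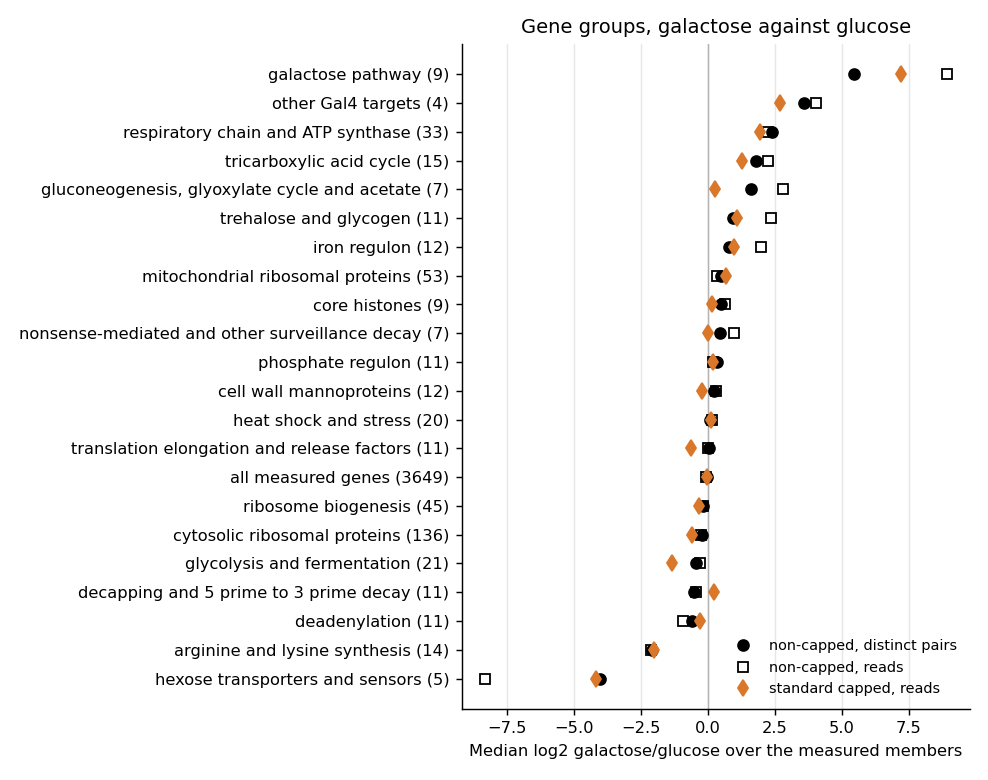
Median log2 ratio of galactose to glucose over the measured members of 21 gene groups and over the measured genes, for non-capped distinct pairs (black circles), non-capped reads (open squares) and standard capped reads (orange diamonds), with the number of measured genes in brackets. The galactose pathway is highest at 5.48 in pairs and the hexose transporters lowest at −4.0, while glycolysis lies at −0.42 in non-capped pairs and −1.33 in capped reads.

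The ratios in non-capped molecules were set beside those in capped ones. Among 613 genes with at least 50 distinct pairs in both libraries together, the log2 ratio by non-capped pairs and by capped reads had a Pearson r of 0.86 and a Spearman rho of 0.48 across genes. Genes are not independent replicates, culture 2 and culture 3 are also among the capped libraries, and the genes of the galactose pathway have the largest values on both axes. Of 25 of these genes that were higher in the capped columns, 22 were called higher in the non-capped libraries, and of 57 lower in the capped columns, 20 were called lower. The numbers 25 and 57 depend on the scaling, because totals would add 0.44 to each capped log2 ratio. In the other direction, of 249 genes called higher with enough capped reads, 112 were past 2-fold higher in the capped columns, with a median log2 ratio of 2.47 in non-capped pairs and 0.74 in capped reads. Of 165 called lower, 38 were past 2-fold lower in the capped columns, with medians of −1.93 and −0.46. All these genes were picked by their non-capped ratios. That selection enlarges the non-capped medians and can also move the capped ones, so the sizes of the medians cannot be compared. Over the 3525 genes with enough reads in both protocols, Pearson r and Spearman rho with non-capped reads in place of pairs were 0.36 and 0.25. The genes and the counting differ from those behind 0.86 and 0.48.

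**Figure D3:**
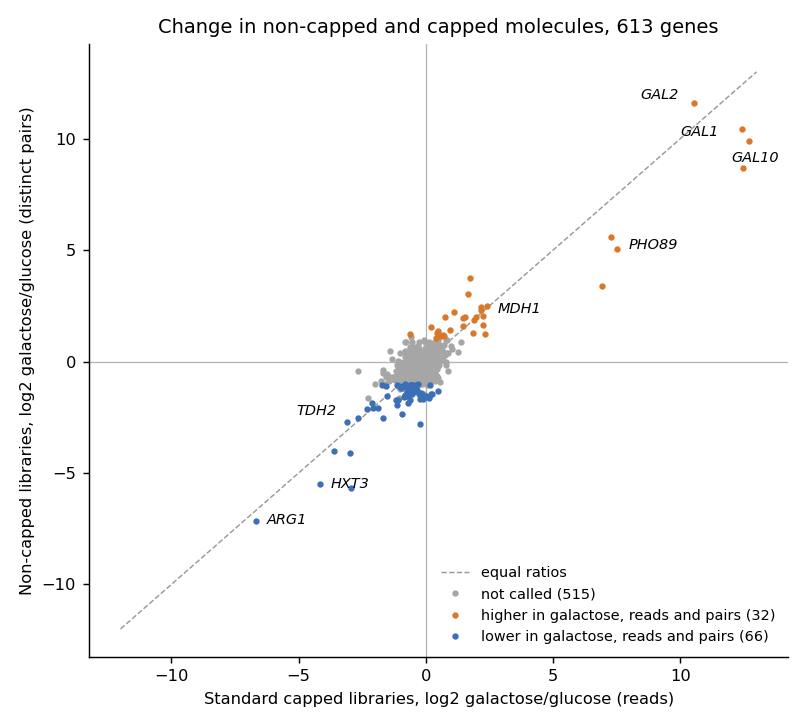
Log2 ratio of galactose to glucose in non-capped libraries, by distinct pairs, against that in standard capped libraries, by reads, for 613 genes with at least 50 non-capped pairs; orange and blue mark genes called higher and lower in non-capped reads and pairs, and the dashed line marks equal ratios. GAL1, GAL2 and GAL10 lie at the upper right and ARG1 and HXT3 at the lower left, with most genes near 0 on both axes.

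Some genes differed between the protocols. By reads and by distinct pairs, the non-capped ratio lay above the capped ratio at least 2-fold with intervals that do not overlap in 84 of 3525 genes (2.38%), and below it in 44 (1.25%). By reads alone 833 genes (23.6%) lay above and 962 (27.3%) below, and 596 and 1211 when the libraries were scaled by their totals. BUD22, a nucleolar protein gene of ribosome biogenesis, had 353 non-capped reads from 24 pairs in glucose and 0 in galactose, but 202 and 221 capped reads. PRP42, a U1 snRNP component, had 278 and 0 non-capped reads from 19 and 0 pairs, and 88 and 134 capped reads. UTP10, of the small subunit processome, had 765 and 125 non-capped reads from 59 and 7 pairs, and 139 and 210 capped reads. In the other direction CIR2 had 0 and 284 non-capped reads, from 0 and 10 pairs, against 113 and 209 capped reads, and PPH22, a catalytic subunit of protein phosphatase 2A with a near-identical copy, 0 and 130 from 0 and 9 pairs, against 73 and 90. MDM32, a protein of the inner mitochondrial membrane, and FKH1, a forkhead transcription factor, were also above their capped ratio, on 6 and 4 galactose pairs with 0 in glucose. These genes had few molecules in one library, and with 1 library each the difference has no replicate check. BUD22 and PRP42 passed the minimum of non-capped reads through glucose alone, and CIR2, PPH22, MDM32 and FKH1 through galactose alone. That these 6 differ follows in part from the filter.

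Nearly all non-capped molecules began inside the coding sequence, in either medium. The share of reads was 94.3% in glucose (95% exact interval 94.3 to 94.3) and 93.1% in galactose (93.1 to 93.2), and that of distinct pairs was 94.7% (94.6 to 94.9) and 93.2% (93.0 to 93.5). In the standard capped columns it was 6.04% and 7.62% of reads, but 34.2% and 36.4% of distinct pairs. Within 10 nt of the 5′ end that capped molecules of the gene used most lay 1.97% of non-capped pairs in glucose and 2.57% in galactose, against 34.0% and 32.3% of standard capped pairs and 74.1% and 70.7% of standard capped reads. Of the 3 equal parts of the coding sequence, the last held 40.2% of non-capped reads in glucose and 41.4% in galactose, and the first 18.9% and 17.8%. By distinct pairs the last held 41.9% and 41.3%, and the first 18.5% and 17.8%. The median span from end to end was 525 nt and 551 nt. Of the 3′ ends, 71.6% and 67.8% by reads were within 10 nt of the 3′ end that capped molecules of the gene used most, against 76.8% and 74.2% of standard capped reads. By distinct pairs the order was the other way, with 66.6% and 64.8% of non-capped and 51.6% and 51.1% of standard capped pairs.

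**Figure D4:**
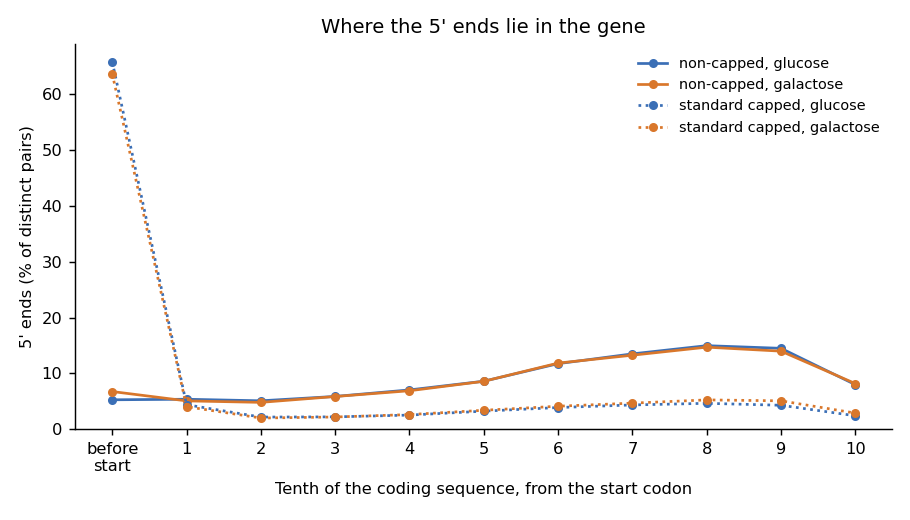
Share of distinct pairs whose 5′ end lies before the start codon or in each of 10 equal parts of the coding sequence, for non-capped (solid) and standard capped (dotted) libraries in glucose (blue) and galactose (orange). The non-capped curves of both media lie on each other, from 5.38% and 5.09% in part 1 to 15% and 14.7% in part 8.

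The share of ends inside the coding sequence differed between the media in few genes. In 2027 genes with at least 50 reads in each library, reads alone put 68 genes (3.35%) at least 20 percentage points higher in galactose and 128 (6.31%) lower, with intervals that do not overlap. Reads and distinct pairs together gave 0 genes higher (0%) and 6 lower (0.296%). With pairs of near-identical ends merged, 0 genes were called either way, so that these 6 lost their call. HTA1, a histone H2A gene with a near-identical copy, had 64 of 86 pairs inside the coding sequence in glucose and 29 of 62 in galactose. LSM1, of the Lsm1-7 complex that promotes decapping, had 76 of 99 and 9 of 21, SAR1, a GTPase of secretory vesicles, 39 of 50 and 5 of 17, and AHP1 323 of 338 and 17 of 23. ALE2 had 55 of 58 and 13 of 20 pairs inside, and RPS29A, a ribosomal protein gene with a near-identical copy, 27 of 46 and 1 of 14. In these 6 genes a larger share of the galactose molecules began before the start codon.

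The reading frame of the 5′ ends differed slightly from an even split over the 3 frames. At least 30 nt from either end of a coding sequence without introns, 38.3% of reads in glucose (interval 38.2 to 38.4) and 37.1% in galactose (37.0 to 37.2) began at the second base of a codon, the frame that puts an A-site codon 17 nt downstream. By distinct pairs the values were 37.9% (37.5 to 38.2) and 36.8% (36.2 to 37.3). Up to 60 nt before the start codon, 33.6% and 33.0% of pairs lay in that frame. The 4 bases around the end, which are not used evenly (40.8% of glucose and 41.3% of galactose ends began with A), give 35.2% and 36.3% when ends are dealt to equal contexts within coding sequences. By distinct pairs the glucose share and its interval thus lie above what those bases give, whereas the galactose interval only just includes it. The galactose interval by reads, 37.0 to 37.2, lies above 36.3%, a share worked out by pairs. The use of the bases was taken from the same ends and has no interval, so these values do not settle whether the media differ. Inner ends of the standard capped columns had 41.1% and 35.3% in that frame, with 32.7% and 32.2% from their bases, and their excess was also larger in glucose.

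A ribosome that terminates translation leaves an end 17 nt before the stop codon in this frame. In glucose 54 distinct pairs began there, against a mean of 19.5 at 16 neighbouring positions, a ratio of 2.77 (interval 2.03 to 3.71). Among genes with at least 200 reads in each library it was 1.73 (1.00 to 2.83) on 18 pairs. In galactose 10 pairs began there against a mean of 8.88, a ratio of 1.13 (0.529 to 2.13). The intervals of the media overlap, and at this depth a galactose ratio of up to 2.13 lies within its interval; by reads the ratios were 1.94 (1.74 to 2.15) and 0.942 (0.811 to 1.09). Inner ends of the standard capped columns, with far more pairs, had ratios of 9.21 (7.93 to 10.7) in glucose and 3.16 (2.66 to 3.75) in galactose, and those of the long-enriched columns 7.61 and 4.90.

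The codon 17 nt after the end differed between the media for a few codons. For each of 61 codons, ends in this frame were compared with the codons at 14 neighbouring places. Only ends at least 60 nt from either end of the coding sequence were counted. The proline codon CCG was found 188 times in glucose, 2.17 times its expected number (interval 1.85 to 2.53), and 41 times in galactose, a ratio of 1.23 (0.869 to 1.69). The arginine codon CGA was found 39 times in glucose, at 1.01 (0.708 to 1.40), and 30 times in galactose, at 2.41 (1.58 to 3.57). By these counts the intervals of the media do not overlap for either codon. They overlap for CGA with each 5′ position counted once, at 1.11 (0.764 to 1.55) and 1.93 (1.16 to 3.06), and for CCG among genes with at least 200 reads in each library, at 2.00 (1.51 to 2.63) and 1.03 (0.502 to 1.89). By reads CCG stood at 1.98 (1.88 to 2.08) and 1.22 (1.14 to 1.31), and CGA at 0.799 (0.715 to 0.891) and 3.30 (3.08 to 3.52). Both were picked out of 61 by their values. Of the other arginine codons, CGG stood at 1.04 in glucose and at 2.15 (1.13 to 3.80) in galactose on 14 pairs, and by reads at 0.900 and 1.2. By galactose pairs CGC, CGT, AGA and AGG stood at 1.07, 0.969, 0.992 and 0.919. The proline codon CCA stood at 1.23 (1.15 to 1.32) and 0.985 (0.869 to 1.11).

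The CCG pairs came from 156 genes in glucose and 30 in galactose, and the CGA pairs from 36 and 21, with at most 5 pairs in 1 gene. Among genes with at least 200 reads in each library, CGA in galactose had 6 pairs and its interval no longer excluded 1, at 2.10 (0.728 to 4.98). Inner ends of the standard capped columns had CCG at 2.93 (2.69 to 3.18) in glucose and 1.84 (1.68 to 2.02) in galactose, and CGA at 1.70 (1.45 to 1.99) and 2.55 (2.26 to 2.87), the same order between media for each codon. These columns share cultures with the non-capped libraries. As background, CGA is decoded slowly in yeast by an inosine-containing tRNA, and proline is a poor substrate for peptide bond formation. Whether either bears on these ratios was not tested. Windows around ends before these codons and before a stop codon are shown, with the codon in capitals and the 5′ end at base 6 of each window.
SMX3 CCG, chrXVI:900220-900249, plus strand: gatgcagccggtgaacccgaagCCGttcct
GAL10 CCG, chrII:277616-277645, minus strand: ttatgattccagagatggtaccCCGatcag
YPT52 CGA, chrXI:465551-465580, minus strand: acaagaacaagggttgctgttcCGAgaagt
RXT2 CGA, chrII:434698-434727, minus strand: aaatgaggaaattgagtctgccCGAcagct
MDH1 stop codon, chrXI:280103-280132, plus strand: tgtcaactttgttgctagtaaaTAGattgt

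The end in SMX3, a core component of spliceosomal snRNPs, had 333 reads from 7 pairs in glucose and 3 from 1 pair in galactose. It lies 31 nt after the start codon, so it is not among the CCG ends counted above. The end before CCG in GAL10 had 131 reads from 5 pairs in galactose and 0 in glucose. The ends before CGA in YPT52, a Rab GTPase of endosomes, and RXT2, of a histone deacetylase complex, had 113 reads from 3 pairs and 83 from 2 in galactose, and 1 and 0 reads in glucose. Among ends before CGA that are not shown, that in GPI1 had 31 reads from 3 pairs in galactose and 6 from 1 in glucose. That in RAD18 went the other way, with 4 reads from 2 pairs in glucose and 0 in galactose. The end before the stop codon of MDH1 had 9 reads from 4 pairs in glucose and 3 from 1 pair in galactose. Each single end thus rests on few molecules, and the codon values on the sum of the counted ends over genes.

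**Figure D5:**
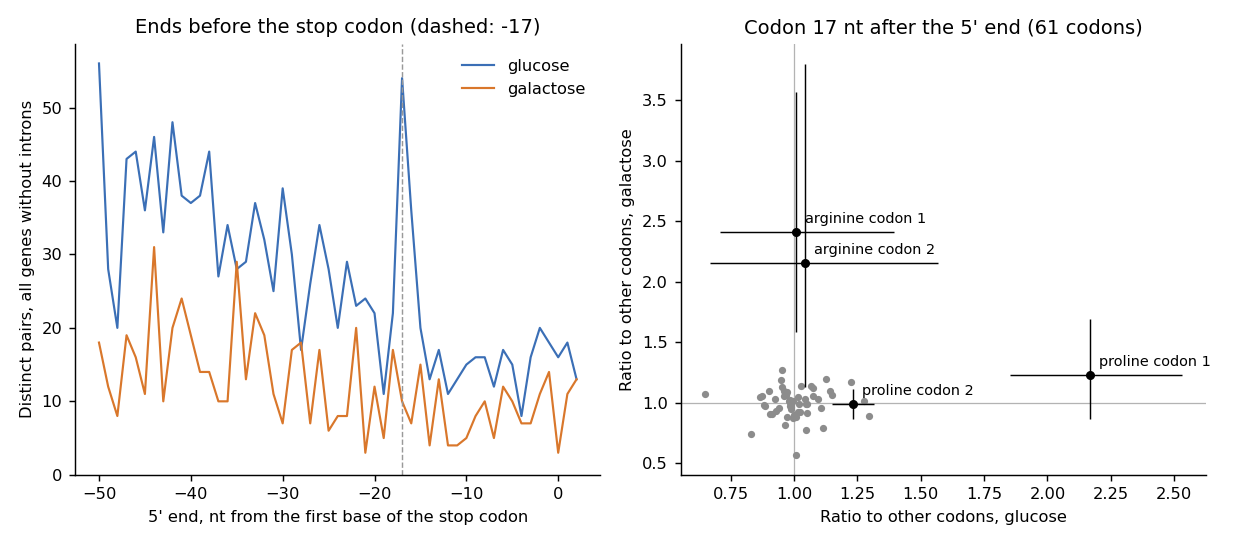
Left, distinct pairs with a 5′ end at each distance from the first base of the stop codon, summed over genes without introns, glucose in blue and galactose in orange; the glucose curve has 54 pairs at the dashed line, 17 nt before the stop codon, and the galactose curve 10. Right, ratio of each codon 17 nt after the 5′ end to its neighbours in galactose against glucose, with 95% intervals for proline codons 1 (CCG) and 2 (CCA) and arginine codons 1 (CGA) and 2 (CGG); CCG lies at 2.17 in glucose and CGA at 2.41 in galactose.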

How the data were processed

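The deposited table lists 5′ and 3′ ends with read counts, which the authors pooled by protocol and medium, 1 library in each non-capped column. Per the submitters' processing notes, CASAVA and Novoalign 2.07.10 and build R64 were used; the sources used here do not give whether duplicates were removed. Pairs were assigned to RefSeq R64 coding sequences (Python 3.11.15, pandas 2.3.3), scaled by edgeR 4.0.16 trimmed means of M-values, with DESeq2 1.42.0 size factors as an alternative, and compared by exact Poisson ratio intervals (scipy 1.17.1). The scripts were tested on simulated data. Near-identical copies share at least 90% identity over 80% of the length (blastn 2.17.0). Members and lists were chosen with earlier results of these data known, and the requirement of a call in both reads and distinct pairs was added after seeing the data. Genes were named as the list members, the largest differences and up to 3 called members of each list; HXT4, COX5B, RPL3, GCN4, and genes named by a count of 5 or fewer, were picked once their values had been seen. The deposited table's strand column was used, so antisense reads were kept apart.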

Additional observations from a re-analysis of the deposited data

How the results depend on the processing

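No paired analysis was possible because each medium has 1 non-capped library and their culture numbers, 2 and 3, differ. For the same reason no library could be left out. By reads alone, 994 genes were called higher and 1065 lower. Each distinct pair counted once gave 274 and 203, merged pairs 178 and 130, a call in reads and pairs 254 and 165, a minimum of 200 reads 476 and 395, reads covering the coding sequence 234 and 219, and no minimum 1683 lower. Against the capped columns, 833 above and 962 below by reads became 93 and 50 with distinct pairs, 68 and 17 with merged pairs, 84 and 44 with both counts, 305 and 261 at 200 reads, and 1502 below with no minimum; scaling by totals gave 596 and 1211. The cause was not tested.

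The share inside the coding sequence differed by −1.17 percentage points by reads, −1.48 by distinct pairs, −1.45 by merged pairs, −0.35 with genes weighted equally, −1.47 at 20 reads, −1.72 at 200 reads and −1.50 without the 10 leading genes. The share near the capped end differed by 0.517, and by 0.603, 0.615, 0.309, 0.445, 0.648 and 0.644 under these settings, 0.316 and 0.836 with 5 nt and 25 nt windows, and 0.565 for reads on 1 coding sequence. Genes shifted in and out, 68 and 128, became 0 and 6 by pairs and by both counts, 0 and 0 by merged pairs, 123 in at 20 reads, and 10 and 50 at 200 reads. The frame share in glucose, 38.3%, was 37.9% by pairs, 39.1% with equal weights, 38.6% without the 10 leading genes, 37.8% at 200 reads and 37.6% with each position counted once. In galactose, 37.1%, it was 36.8% by pairs, 36.2% with equal weights, 37.3% at 200 reads, 36.9% by merged pairs and 36.6% by position.

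Among named genes the log2 ratio changed sign for CAT8 by pairs (1.82) and merged pairs (1.81), for TDH3 (0.12) and POP2 (0.19) by merged pairs, and with covering reads for HTA2 (−0.0064), RPS9B (1.79), NHP2 (−0.50), YER152C (7.47), YNL040W (−5.63), CIT1 (−3.51) and ALE2 (0.26). Of the 113 genes set for naming, not all of them described above, 30 lost the call that reads gave when distinct pairs were counted. A gene called above needs both counts, so these 30 are not among the genes called above. The small number of distinct pairs in galactose limits what can be seen.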
